A study of Mus musculus with 2 samples.

Results

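The genes described here encode the chains of collagen and the proteins that modify, fold and crosslink them. They were chosen by symbol: every gene whose name has the collagen form (such as Col1a1), the prolyl 4-hydroxylase genes P4ha1 to P4ha3, the lysyl hydroxylase genes Plod1 to Plod3, the collagen chaperone gene Serpinh1, and the lysyl oxidase genes Lox, Loxl1, Loxl3 and Loxl4. This gave 53 of 18193 named genes, 42 of them collagens, measured by 101 probe sets (a probe set is the group of array oligonucleotides that reads out 1 transcript). The 2 probe sets annotated to Loxl2 also carried another gene symbol, so no value is given for it.

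RNA came from scrapings of the colon mucosa of C57BL/6 mice, 6 to 8 weeks old (7 weeks in the design text), after 3 days of 3% dextran sulfate sodium (DSS), a sugar polymer that damages the lining of the colon. Hif-2αF/F mice have a conditional (floxed) Epas1 gene, which encodes the hypoxia-inducible factor HIF-2α. In Hif-2αΔIE mice it is deleted from epithelial cells of the intestine, a reading of the label taken from knowledge of this mouse model, and the sources used here do not give the promoter that drives the recombinase. Both genotypes received DSS, so no uninjured colon enters the comparison. Per the design text there were 6 mice of the F/F and 5 of the ΔIE genotype. The values are 1 array for each, and the sources used here do not say whether RNA was pooled. No difference below therefore has a replicate check, a standard error or a test: each compares 2 arrays.

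Collagens are triple helices wound from chains that repeat glycine at a fixed spacing. Fibrillar collagens (types I, III and V) pack into the fibres of connective tissue and are made mainly by fibroblasts, whereas type IV forms the sheet-like network of basement membranes under epithelium and around vessels and muscle. Inside the cell, prolyl and lysyl hydroxylases modify the chains and the chaperone HSP47 (Serpinh1) holds the helix together. After secretion, lysyl oxidases crosslink the fibres. The hydroxylases need oxygen and iron, and several of these enzyme genes are known to respond to hypoxia-inducible factors.

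Values are log2 expression, and differences are ΔIE minus F/F on that scale, so that a difference of -1 is 2-fold lower on the ΔIE array. Where a gene had several probe sets, the one with the highest mean over the arrays was used. A gene was kept where the higher of its values reached 6.11, the median of all probe sets. Of the 53 genes 35 were kept, 34 of them with both arrays at or above that level. The exception was Col20a1, which passed through the ΔIE array alone. On the whole array set, 4 control probe sets for Cre recombinase read 2.92 to 4.22 in F/F and 7.86 to 10.01 in ΔIE, while Epas1 itself had values of 11.90 and 11.77 by its brighter probe set and 6.98 and 7.15 by its dimmer one. Whether either lies in the deleted part was not determined here.

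Most of these genes were lower on the ΔIE array. Of the 35 kept, 29 were lower by any amount (82.9%), where 46.5% of the 11899 genes kept overall were lower. At least 2-fold lower were 6 of the 35 (17.1%), against 5.30% of all genes kept, and none of the 35 was 2-fold higher, where 1.15% of all genes were. The 6 were Col17a1, Lox, Col1a1, Col5a2, Col18a1 and Col5a3. Col5a3 lay just inside the 2-fold limit at -1.02, and Col12a1 (-0.98), Loxl1 (-0.96) and Col7a1 (-0.95) lay just outside it. The median of the 35 differences was -0.54, beside 0.02 over all genes kept. The scraping is a mixture of cells, so fewer cells of a type and less RNA per cell cannot be told apart.

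**Figure D1:**
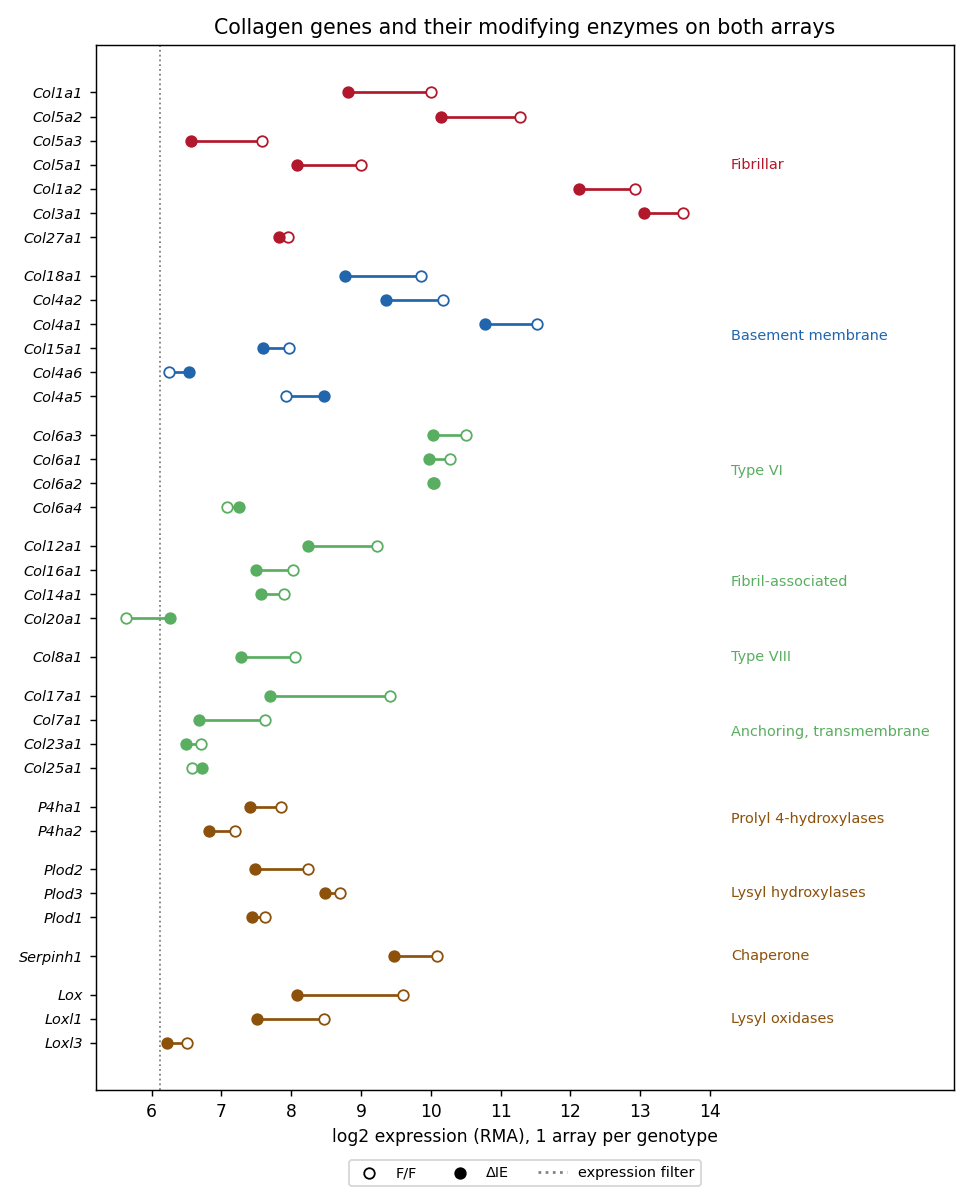
Log2 expression of the 35 genes kept, in rows grouped by class, with the F/F array as open circles, the ΔIE array as filled circles and the expression filter (6.11) as a dotted line. The filled circle lies to the left in all 7 fibrillar collagens and all 9 enzyme and chaperone genes, and to the right in Col4a5, Col4a6, Col6a4, Col20a1, Col25a1 and, by 0.02, in Col6a2.

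The bases before the start of a few of these genes are shown first, as a description. They are the 250 bases upstream of the gene start in RefSeq (build GRCm38.p6). Capitals mark, on either strand, ACGTG and GCGTG, the core letters that hypoxia-inducible factors recognise, and CCAAT, the box bound by NF-Y; no capitals overlap. Col1a2 (plus strand, chr6:4505368-4505617) and Col3a1 (plus strand, chr1:45311288-45311537) stand for the fibrillar chains, Col17a1 (minus strand, chr19:47692043-47692292) is the lowest of all 35, and P4ha2 (plus strand, chr11:54100674-54100923) and Serpinh1 (minus strand, chr7:99353240-99353489) stand for hydroxylase and chaperone.
Col1a2: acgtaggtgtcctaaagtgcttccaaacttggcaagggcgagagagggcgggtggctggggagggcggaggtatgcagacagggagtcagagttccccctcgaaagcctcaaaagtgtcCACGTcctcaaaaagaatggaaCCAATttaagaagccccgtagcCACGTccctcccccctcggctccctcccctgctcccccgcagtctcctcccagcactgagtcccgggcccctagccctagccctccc
Col3a1: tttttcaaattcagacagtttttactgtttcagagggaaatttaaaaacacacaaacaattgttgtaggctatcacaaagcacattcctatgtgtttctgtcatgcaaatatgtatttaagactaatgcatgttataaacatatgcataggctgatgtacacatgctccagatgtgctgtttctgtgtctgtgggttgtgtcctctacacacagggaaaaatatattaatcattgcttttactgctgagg
Col17a1: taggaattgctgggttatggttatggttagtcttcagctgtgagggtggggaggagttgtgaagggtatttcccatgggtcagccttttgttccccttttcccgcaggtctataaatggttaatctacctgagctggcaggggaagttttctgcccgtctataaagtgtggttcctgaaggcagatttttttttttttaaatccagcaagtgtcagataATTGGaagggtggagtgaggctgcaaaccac
P4ha2: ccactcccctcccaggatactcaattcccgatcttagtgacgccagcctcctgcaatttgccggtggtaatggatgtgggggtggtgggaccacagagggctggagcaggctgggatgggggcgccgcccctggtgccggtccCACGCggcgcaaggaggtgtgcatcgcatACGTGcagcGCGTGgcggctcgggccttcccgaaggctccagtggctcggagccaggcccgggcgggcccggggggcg
Serpinh1: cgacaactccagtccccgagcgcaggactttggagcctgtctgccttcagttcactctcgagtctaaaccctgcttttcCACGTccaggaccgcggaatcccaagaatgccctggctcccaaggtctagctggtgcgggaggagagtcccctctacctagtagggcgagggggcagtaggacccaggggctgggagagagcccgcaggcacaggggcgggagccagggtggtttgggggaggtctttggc

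RefSeq windows were at hand for 40 of the 53 genes. They were missing for Lox, Loxl1 and Plod2, the enzyme genes with the largest differences, and for Loxl3. Among the collagens without a window were Col1a1 and Col5a2, both at least 2-fold lower. Many windows counted here lie inside the annotated span of their own gene, such as those of P4ha1, P4ha3, Col5a1 and Col4a5. The window of Plod3 overlaps Znhit1. Those printed above overlap no annotated gene. Such overlap was not examined for the windows of all genes. P4ha3 and Loxl4, whose windows were included, were below the expression filter. Of the 7 windows of enzyme and chaperone genes, 6 held ACGTG or GCGTG (P4ha1, P4ha2, Plod1, Plod3, Serpinh1 and Loxl4, but not P4ha3). Among 36 windows of 33 collagen genes 10 held one, and the share over all 32851 windows was 38.6%. The letters contain CG, and the windows differ in base composition: the median share of G and C was 67.2% for the enzyme windows, 59.0% for the collagen windows and 52.4% for all. CCAAT stood in 13 of the 36 collagen windows and in 33.8% of all windows. A match describes the letters and is not a binding site. HIF-2α is read above as deleted from epithelial cells, whereas fibrillar collagens are made mainly by fibroblasts. Any link between these letters and the differences was not tested.

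Of the fibrillar collagens, each of the 7 genes kept had the smaller value in ΔIE, and their median difference was -0.92. Type I collagen, the main protein of connective tissue fibres, is built from Col1a1 and Col1a2. Col1a1 read 10.00 in F/F against 8.81 in ΔIE (2.29-fold lower), and its other probe set gave the same difference of -1.19. Col1a2 read 12.93 and 12.12, a difference of -0.81. Its second probe set, at 11.22 in F/F, differed by -1.19, the value found for Col1a1. Both chains of type I collagen were thus lower by every probe set that reached the filter.

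Type III collagen, which is laid down together with type I in soft tissue and early in repair, is a homotrimer of the Col3a1 chain. Col3a1 read 13.62 in F/F against 13.05 in ΔIE, a difference of -0.57, and its second probe set read 10.81 in F/F and differed by -1.23. The gap of 0.67 between these probe sets was the widest between the brightest and second brightest probe set among the 19 collagen and enzyme genes for which several reached the filter. Over 5110 genes of all kinds gaps of that kind had a median of 0.10 and a 95th percentile of 0.41. In both Col1a2 and Col3a1 the smaller difference belonged to the probe set that read above 12 on both arrays, and whether signal near the top of the scale is compressed was not tested.

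Type V collagen nucleates type I fibres and limits their width, and its chains were lower as well. Col5a2 read 11.28 in F/F against 10.15 in ΔIE (2.19-fold lower), and its second probe set differed by -1.26. Col5a1 read 9.002 and 8.08, a difference of -0.92, with -0.75 by the next probe set. A further, dimmer Col5a1 probe set read 6.94 and 6.75, a difference of only -0.20, so that the probe sets of this gene spanned 0.72, the widest span over all probe sets of a gene at the filter, and their average was -0.62. Col5a3, the least common chain of this type, read 7.58 and 6.56, a difference of -1.02. Col27a1, a fibrillar chain best known from cartilage, hardly differed, with 7.95 in F/F against 7.83 in ΔIE, and its second probe set differed by -0.33. The cartilage chains Col2a1, Col11a1 and Col11a2, and Col24a1, were below the filter on both arrays.

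The basement membrane collagens went both ways. The median of the 6 kept was -0.56, with 4 lower, 2 higher and 1 at least 2-fold lower. Type IV is assembled from 6 different chains in set combinations. Col4a1 and Col4a2, whose trimer is found in nearly all basement membranes, read 11.52 and 10.17 in F/F against 10.77 and 9.36 in ΔIE, differences of -0.75 and -0.81. Col4a5 was higher on the ΔIE array (7.93 against 8.47, a difference of 0.55), and its second probe set gave 0.59. Col4a6, which joins Col4a5 in a trimer of smooth muscle and some epithelial basement membranes, read 6.25 and 6.54 (0.29), close to the filter, with 0.59 by its dimmer probe set, which reached the filter in ΔIE alone. Col4a3 and Col4a4 were below the filter on both arrays.

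Type IV genes that adjoin in the genome had the same direction in both pairs that could be read. They lie as adjacent pairs: Col4a1 beside Col4a2 on chromosome 8, Col4a6 beside Col4a5 on the X chromosome, and Col4a4 beside Col4a3 on chromosome 1. Within the first pair both genes were lower (-0.75 and -0.81) and within the second both were higher (0.29 and 0.55). Of the other types, Col3a1 (-0.57) and Col5a2 (-1.13) are neighbours on chromosome 1, and Col6a2 (0.02) and Col6a1 (-0.30) on chromosome 10. The second probe set of Col3a1 differed by -1.23, so how alike Col3a1 and Col5a2 are depends on the probe set. The likeness within pairs was not tested.

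Type XV and type XVIII collagens sit in basement membranes and carry sugar chains, and the C-terminal fragment of type XVIII is endostatin. Col18a1 had 9.86 in F/F against 8.77 in ΔIE, which is 2.12-fold lower, and its second probe set differed by -1.02. Col15a1 read 7.96 and 7.60, a difference of -0.36. Col18a1 was thus the lowest of the basement membrane collagens kept, with Col4a2 (-0.81) and Col4a1 (-0.75) next.

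Set beside each other, the fibrillar median (-0.92) lay below the basement membrane median (-0.56), but the classes overlapped. Col18a1, Col4a2, Col4a1 and Col15a1 lay within the fibrillar range of -1.19 to -0.12. No test of this difference can be made with 1 array per genotype. The fibrillar minus basement membrane gap was -0.36, and it became -0.14 with the filter at the 75th percentile of all probe sets, which leaves out Col4a6 and Col15a1. With the type IV chains alone as the basement membrane class it was -0.69.

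**Figure D2:**
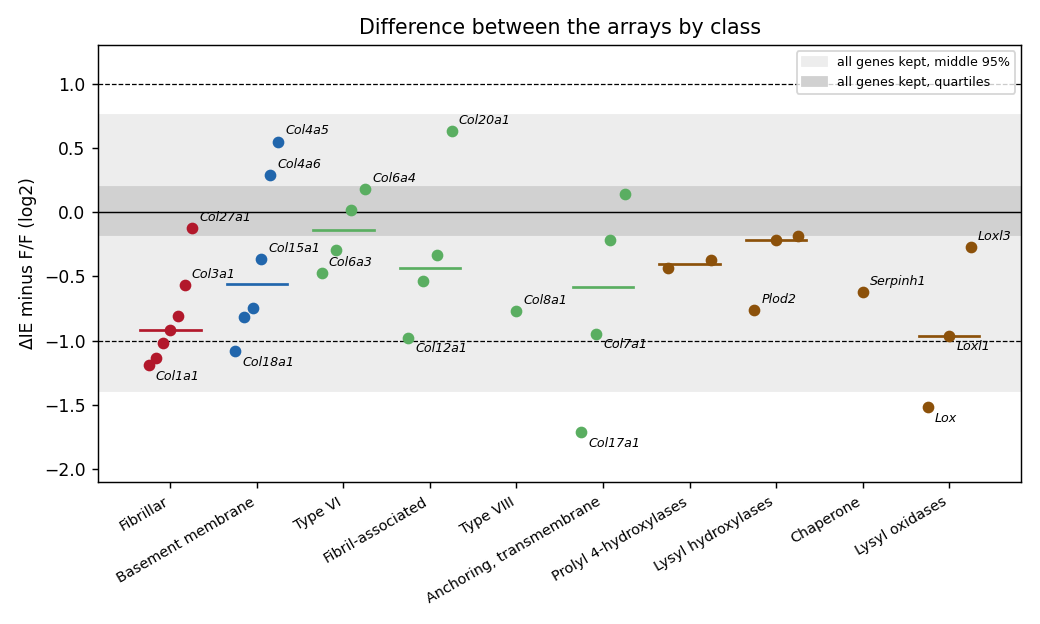
Difference ΔIE minus F/F (log2, vertical axis) of each gene kept, by class, with horizontal bars at class medians, dashed lines at 2-fold, and grey bands for the quartiles and the middle 95% of all 11899 genes kept. Col17a1 (-1.71) and Lox (-1.52) lie below the wider band and Col20a1 (0.63) is the highest point.

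Type VI collagen forms beaded filaments around cells and next to basement membranes, and its main chains differed by -0.47 to 0.02. Col6a1 read 10.28 in F/F against 9.98 in ΔIE (-0.30), Col6a3 10.50 and 10.03 (-0.47), and Col6a2 10.03 and 10.05 (0.02). The sign of Col6a2 depended on the probe set and the scaling: it was -0.01 with probe sets averaged and -0.05 after lowess correction. Col6a4, a further chain of this type in the mouse, read 7.08 and 7.25 (0.18). Col6a5 was below the filter. None of the 4 type VI chains kept reached 2-fold.

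The fibril-associated collagens attach to the surface of fibres. Col12a1, found in tissues under tension, read 9.22 in F/F against 8.24 in ΔIE, a difference of -0.98, but its second probe set differed by -0.49. Col14a1 read 7.90 and 7.56 (-0.34, with -0.37 by the second probe set) and Col16a1 8.03 and 7.49 (-0.54). Col20a1 read 5.63 in F/F against 6.26 in ΔIE (0.63), and because it passed the filter only on the ΔIE array its direction was fixed by the filter. Col9a1, Col9a2, Col9a3, Col19a1 and Col22a1 were below the filter. The 3 with both values above the filter thus had differences of -0.98 to -0.34.

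Col8a1, which builds the open networks of vessel walls, read 8.05 in F/F against 7.28 in ΔIE (-0.77, and -0.46 by its second probe set). Its partner Col8a2 and the growth plate gene Col10a1 were below the filter.

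Col17a1 had the largest difference of all 35 genes. It encodes a transmembrane collagen of hemidesmosomes, the plaques that hold basal epithelial cells to the basement membrane. The single Col17a1 probe set read 9.41 in F/F against 7.70 in ΔIE (3.28-fold lower), and 0.99% of all genes kept had a lower value of the difference. Col7a1, the anchoring fibril collagen beneath squamous epithelium, read 7.63 and 6.68 (-0.95). The markers of squamous epithelium, which lines the anal canal next to the rectum, were lower on the same arrays: 9 of 9 kept, of 10 measured, with a median of -1.21, and log2 of their summed signal was 14.66 in F/F against 13.39 in ΔIE. Among them Trp63, the basal cell transcription factor, read 9.16 and 7.61, Krt14 12.40 and 10.81, and Krt5 12.30 and 10.94; only Ivl was below the filter. Hox genes of the hind end of the body axis were lower too, 7 of 7 kept of 9 measured, with a median of -1.49 and summed signals of 12.06 and 9.83. Of these, Krt1 among the squamous markers and Hoxa13, Hoxd11 and Hoxa10 among the Hox genes passed the filter in F/F alone, which fixed their direction. With both arrays at the filter, 8 of 8 squamous markers (median -1.28) and 4 of 4 Hox genes (median -2.13) were lower. The part of either in the Col17a1 and Col7a1 differences was not tested.

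The remaining transmembrane collagens differed by less. Col23a1 read 6.71 in F/F against 6.49 in ΔIE (-0.22), and its second probe set differed by -0.28. Col25a1 read 6.58 and 6.72 (0.14). Col13a1 was below the filter, as was Col26a1, which was listed in this class but is not a transmembrane collagen.

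Each of the 9 enzyme and chaperone genes kept was lower in ΔIE, 1 of them by at least 2-fold, and their median difference was -0.44. The catalytic subunits of prolyl 4-hydroxylase make the hydroxyproline that stabilises the helix, and those kept were lower by less than 2-fold. P4ha1 read 7.85 in F/F against 7.41 in ΔIE (-0.44), and P4ha2 7.20 and 6.82 (-0.37), while P4ha3 was below the filter. P4hb, the shared partner subunit, which is also a general disulfide isomerase, read 12.66 and 12.74 (0.08). The P4hb difference was smaller than the median gap between probe sets of 1 gene over all genes (0.10), so its direction cannot be read.

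The lysyl hydroxylases differed among themselves. Plod2, which acts on the ends of the chains where crosslinks form, read 8.25 in F/F against 7.48 in ΔIE (-0.77), and its second probe set differed by -1.13, past 2-fold. Plod1 read 7.62 and 7.44 (-0.19) and Plod3 8.70 and 8.48 (-0.22). Serpinh1, the chaperone that binds procollagen alone, read 10.09 and 9.47 (-0.62, and -0.70 by its second probe set). Plod2 and Serpinh1 had larger differences than the prolyl hydroxylases, Plod1 and Plod3, though with 1 array per genotype this cannot be tested.

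The lysyl oxidases act outside the cell and begin the crosslinking of collagen and elastin. Lox, at 9.60 in F/F against 8.09 in ΔIE, had the second largest difference of the 35 (-1.52), and its second probe set differed by -1.32. The average over all 3 of its probe sets, 1 of which was below the filter, was -0.93. Loxl1, which acts chiefly on elastin, read 8.47 and 7.51 (-0.96, and -0.64 by its second probe set, which reached the filter in F/F alone). Loxl3 read 6.50 and 6.23 (-0.27), and Loxl4 was below the filter. The Lox difference lay below that of every fibrillar chain, and those of Loxl1 and Loxl3 lay within the fibrillar range.

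**Figure D3:**
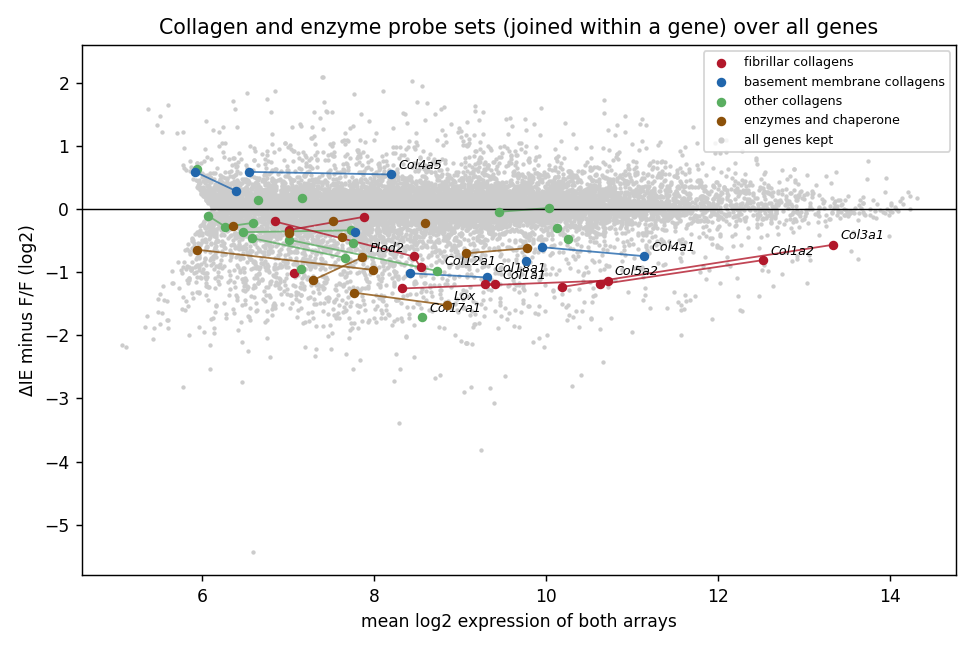
Difference ΔIE minus F/F (log2, vertical axis) against the mean log2 expression of both arrays, with grey points for all 11899 genes kept and coloured points for collagen and enzyme probe sets that reached the filter, joined by a line where they belong to 1 gene. The lines of Col1a2 and Col3a1 rise to the right, from -1.19 to -0.81 and from -1.23 to -0.57.

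Different probe sets of 1 gene gave the same direction in 18 of those 19 genes. The exception was Col6a2, whose values lay on either side of 0 (0.02 and -0.04). Over genes of all kinds, the brightest and second brightest probe sets had the same direction in 3991 of 5110. In Col4a6 and Loxl1 the filter fixed the direction of the second probe set, and in Col23a1 that of the third. Probe sets are repeat readings of the same RNA on the same array and say nothing of the variation between mice.

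The 18 genes not kept read between 3.44 and 5.79 on both arrays. They include the cartilage chains of types II, IX, X and XI. Of 7 cartilage markers 6 were below the filter as well, among them Acan, Comp and Matn1. The one kept was Sox9, a transcription factor that colon epithelium also expresses, which read 7.84 in F/F against 8.38 in ΔIE.

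Of the other genes of collagen assembly, 12 of 15 measured were kept, 8 lower and 4 higher, with a median of -0.26 and none at 2-fold. The filter fixed the direction of P3h3, which passed in F/F alone, and of Colgalt2 (5.99 and 6.15), which passed in ΔIE alone, and of the other 10 genes 7 were lower and 3 higher. P3h3 and P3h4, of the prolyl 3-hydroxylase family, differed by -0.92 (6.31 and 5.40) and -0.88. Bmp1, the protease that trims procollagen ends, differed by -0.69 and its enhancer gene Pcolce by -0.62. Mia3, which loads procollagen into export vesicles, was higher, at 10.76 in F/F against 11.22 in ΔIE. The genes of general use in the secretory pathway, P4hb (0.08) and Ppib (0.04), hardly differed.

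Proteins that bind collagen fibres had a median difference of -0.77, and 9 of the 11 kept were lower, 1 of them (Eln) at least 2-fold. The elastin gene Eln differed by -1.26, and the small proteoglycan genes Dcn, Lum and Bgn by -0.97, -0.94 and -0.81. Fibronectin (Fn1) differed by -0.93 and Sparc by -0.77. Ogn (0.26) and Aspn (0.30), of the same proteoglycan family, were higher.

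Among the other basement membrane genes, 11 of 13 were lower, with a median of -0.39. The filter fixed the direction of Lama1 and Lamb2, which passed in F/F alone, and of the 11 genes with both arrays at the filter 9 were lower, with a median of -0.26. Lama3, a chain of the laminin beneath hemidesmosomes, read 10.26 in F/F against 8.99 in ΔIE (-1.27), the largest difference of that list. Lamb3, its partner chain, differed by -0.02. Lamb1 (-0.61), Nid1 (-0.50) and Lamc1 (-0.39) were lower, whereas Lama4 (-0.15) and Hspg2 (perlecan, -0.07) differed by less. Agrn differed by 0.01 and Lama2 by 0.02. Genes of vascular basement membranes were thus not lower to a like degree.

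Collagen receptors and collagen-cleaving proteases were mostly lower. Of 7 receptor genes kept 5 were lower (median -0.41), from Lair1 of leukocytes (-1.17, its direction fixed by the filter, which it passed in F/F alone; the 6 others had a median of -0.33) to the epithelial integrin gene Itga2 (0.50). The 6 protease genes had a median of -1.25, and each was lower, 5 by at least 2-fold. The collagenase genes Mmp13 and Mmp8 read 9.57 and 10.20 in F/F against 7.04 and 8.73 in ΔIE, and Mmp2 and Mmp14 differed by -1.03 and -0.96.

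**Figure D4:**
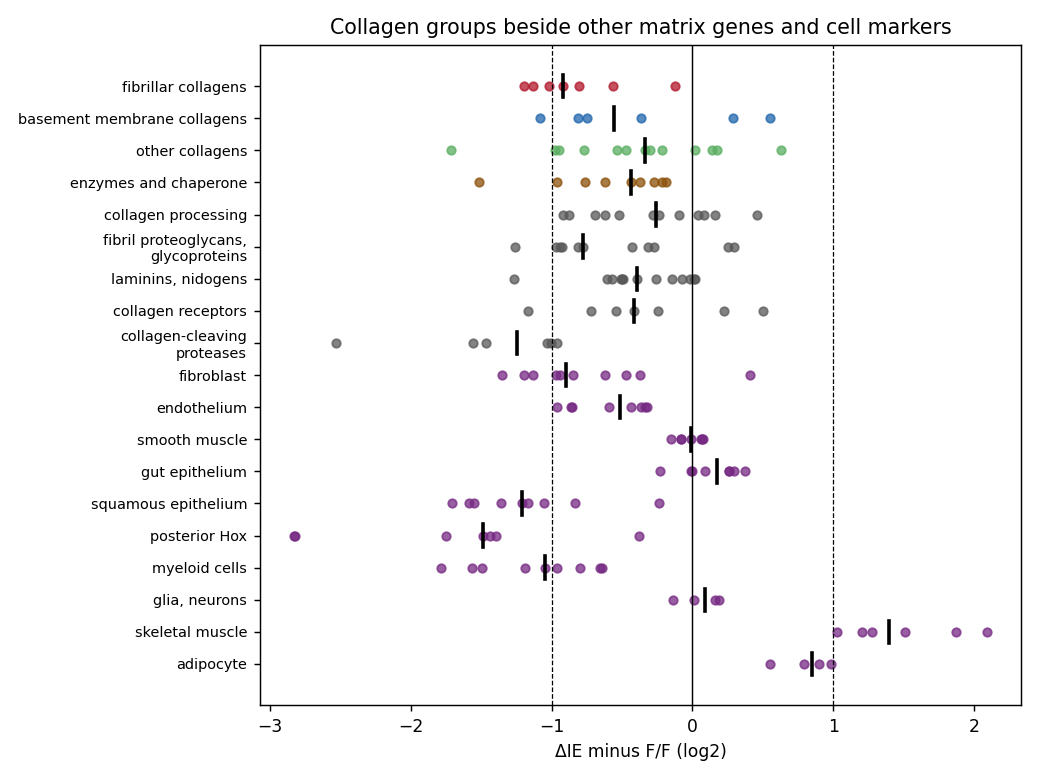
Difference ΔIE minus F/F (log2, horizontal axis) of each gene kept in the collagen and enzyme groups (coloured), in lists of other matrix genes (grey) and in lists of cell and position markers (purple), with black bars at the medians and dashed lines at 2-fold. Fibroblast markers (-0.90) lie beside the fibrillar collagens (-0.92), and smooth muscle markers (-0.01) lie at 0.

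Markers of the cells that make these proteins differed as well, and their part in the collagen differences was not tested. Fibroblast markers were lower in 9 of 10, with a median of -0.90 and summed signals of 14.15 in F/F against 13.30 in ΔIE. Pdgfra read 10.59 and 9.97, Pdgfrb 8.60 and 7.75, and Thy1 8.83 and 7.63, while Fap read 6.99 and 7.40. Dcn and Lum stand in this list and in the list of fibre-binding proteins. Endothelial markers were lower in 8 of 8, with a median of -0.51 and summed signals of 10.71 and 10.16; Tie1 passed in F/F alone, and the 7 others had a median of -0.43. Smooth muscle markers lay within -0.15 to 0.08 of equality, with summed signals of 14.82 and 14.77. Epithelial markers had a median of 0.17 and summed signals of 16.01 and 16.11.

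Markers of other tissues that a scraping can carry also differed. Of 8 skeletal muscle markers measured 6 were kept, each at least 2-fold higher in ΔIE (median 1.40; Tnnt3 reached the filter in ΔIE alone), and 4 of 4 adipocyte markers kept were higher, with a median of 0.85. Their summed signals were 9.58 in F/F against 11.07 in ΔIE for skeletal muscle and 11.28 and 11.95 for adipocytes. Macrophage and neutrophil markers were lower in 9 of 9, with a median of -1.04 and summed signals of 15.23 and 14.44. Glial and neuronal markers had a median of 0.09 over 4 genes kept of 6. How far these tissues contribute to the collagen signal was not tested.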

How the data were processed

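The deposited file holds log2 expression values of 45101 probe sets on 2 arrays, 1 per genotype. Per the submitters' processing notes the authors used affy and RMA, a method that corrects background, equalises the distributions of arrays by quantiles and summarises each probe set. The sources used here give no versions. RMA gives no detection call, and quantile normalization would hide a change in total RNA. Depth does not apply to arrays, and their number limits the precision. Symbols came from a platform annotation (1 symbol for 34958 probe sets). Control probe sets and those with several symbols were left out. The filter, the choice of probe set and the 2-fold limit are given in the text. No test was run. Every collagen or enzyme gene kept is named, and of other lists members with the largest difference, defining markers and contrasting members, the last chosen after their values were seen. The genes and lists were chosen with earlier results of these data known, and CCAAT was added to the motifs after the values were seen. Alternatives were averaged probe sets, no probe sets ending in _s_at, _x_at or _a_at, 4 changes of filter or centring beside a lowess correction (span 0.3), limits of 1.5-fold and 3-fold, and type IV chains alone as the basement membrane class. The scripts were tested on simulated data. Python 3.11.15, numpy 2.4.6, pandas 2.3.3, statsmodels 0.14.6 and matplotlib 3.10.9 were used.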

Additional observations from a re-analysis of the deposited data

How the results depend on the processing

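No paired analysis was possible because each genotype has 1 array. A median was taken to have moved where it shifted by over 0.10, and a gene by over 0.41, the median and the 95th percentile of the gap between probe sets of 1 gene. At 1.5-fold, 16 of the 35 genes were lower and 1 was higher, and at 3-fold 1 was lower. The shares over all genes at these limits are not given here. Under the other alternatives 4 to 7 genes were 2-fold lower, of 19 to 53 kept, and none was 2-fold higher. Over all genes the share 2-fold lower was then 3.72% (no filter) to 5.48% (lowess correction). Without probe sets ending in _s_at, _x_at or _a_at, the fibrillar median was -1.13 and its gap to the basement membrane median -0.58. Without a filter, the medians were -0.57 for fibrillar, -0.25 for basement membrane and -0.11 for other collagens. With the filter at the 75th percentile, they were -0.78 for basement membrane and -0.47 for other collagens, -0.77 for the enzymes, and the gap was -0.14. With type IV chains alone, the basement membrane median was -0.23 and the gap -0.69. Fewer or more genes enter these alternatives by construction. Of 218 recomputed differences of single genes 2 moved, Col3a1 to -1.23 without those probe sets and Lox to -0.93 with probe sets averaged, and the sign changed in 2, both of Col6a2. Median centring used the medians of the 2 arrays and shifted all differences by 0.04 upward. The median difference over all genes kept thereby went from 0.02 to 0.06, so it was not brought to 0. Low signal limits Col4a6, Loxl3 and Col20a1 most.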
